A study of Arabidopsis thaliana with 12 samples.

Results

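Starch is made and broken down by a small set of enzymes, and 10 genes that encode them were described here across 4 groups of Arabidopsis thaliana seedlings. The genes were chosen by name from the 33655 features of the count table, with earlier results of these data known. GBSS1 (AT1G32900) and APL3 (AT4G39210) act in synthesis. GWD1 (AT1G10760) and SEX4 (AT3G52180) add phosphate to starch and take it off. BAM1 (AT3G23920), BAM3 (AT4G17090), BAM5 (AT4G15210) and AMY3 (AT1G69830) encode amylases, and DPE1 (AT5G64860) and DPE2 (AT2G40840) encode enzymes that rearrange the short sugar chains left over.

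The groups were spaQ at 28 °C, spaQ at 22 °C, Col-0 at 28 °C and Col-0 at 22 °C, with 3 libraries each. Col-0 is the common wild-type accession, and spaQ is a line with mutations in the 4 SPA genes, whose alleles the labels do not give. SPA proteins are partners of the ubiquitin ligase COP1, which keeps seedlings from behaving as in light when it is dark. All seedlings were 6 days old and came from seed kept cold for 3 days, and they grew at 22 °C for 5 days on MS medium without added sucrose, under white light (25 µmol). The stay at the final temperature lasted 24 h by the series text and 4 h by the sample protocols, and the protocol text attached to the 28 °C samples repeats the 22 °C wording, so the groups rest on the sample titles and the temperature label. Whole seedlings were used, so fewer cells of a type and less RNA per cell cannot be told apart. The labels do not say that the libraries of a group came from separate cultures. The p-values therefore measure the spread between these samples, which may be technical. That spread was unequal, by a chi-square per degree of freedom that rises as paired libraries of a group differ beyond counting error. For the same spread it also rises with depth, which reached 9390725 counts in Col-0 at 28 °C and 4544840 counts in Col-0 at 22 °C. The chi-square was 1.47 to 2.13 in Col-0 at 22 °C. In the other groups it was 3.32 to 24.8, highest in spaQ at 28 °C. The fit covered all 12 libraries, so p-values for warmth in Col-0 also carry the spread within spaQ.

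In leaves, starch builds up in the chloroplast by day and is broken down at night. ADP-glucose pyrophosphorylase, built of small and large subunits, makes the sugar donor that starch synthases use. Breakdown begins when glucan water dikinase phosphorylates the granule surface. Phosphatases such as SEX4 remove that phosphate again, beta-amylases release maltose, and maltose leaves the chloroplast to be used in the cytosol by DPE2.

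Total counts per library ran from 2609808 to 9390725, and levels are given as CPM, library-scaled counts, after TMM normalisation. The detection floor of a library was taken as 3 counts, which corresponds to 0.319 to 1.15 CPM. As a check of the genotype label, SPA1, SPA2 and SPA3 were lower and SPA4 was higher in spaQ than in Col-0 at both temperatures, all past the threshold. Markers of other tissues moved with the groups. The summed level of 10 root markers was 2.46 to 50.1 CPM in the 28 °C spaQ libraries and 12.1 to 48.1 CPM in the 22 °C spaQ libraries, with up to 6 and up to 4 of the markers at 0 in a library. It was 7.96 to 14.4 CPM in the 28 °C Col-0 libraries and 155 to 182 CPM in the 22 °C Col-0 libraries, with up to 4 and up to 1 marker at 0. The sum of 7 photosynthesis markers was 31454 to 47409.9 CPM in the 28 °C spaQ libraries, 49082 to 55180.1 CPM in the 22 °C spaQ libraries, 17885 to 19766 CPM in the 28 °C Col-0 libraries and 40179.7 to 43036 CPM in the 22 °C Col-0 libraries. The sum of 4 phloem markers was 254 to 271 CPM, 256 to 310.2 CPM, 307 to 384 CPM and 272 to 293 CPM in the same order of groups. Of the 7 photosynthesis markers, 4 were higher and 2 lower in spaQ than in Col-0 at 22 °C past the threshold. At 28 °C, 4 were higher and 1 lower. The shares of all genes tested were 20.7% and 21.7% at 22 °C, and 17.4% and 13.5% at 28 °C. RBCS1A alone had a mean of 29337.5 CPM in spaQ and 20210 CPM in Col-0 at 22 °C. The part of root, photosynthetic tissue and phloem in the results below was not tested. In spaQ, 2 libraries stood apart: replicate 2 at 28 °C had 50.1 CPM of root markers against 3.96 and 2.46 CPM in the other two, and replicate 1 at 22 °C had 48.1 CPM against 13.4 and 12.1 CPM. Both also had the highest photosynthesis marker sum of their group. It was 47409.9 CPM against 38419 and 31454 CPM at 28 °C, and 55180.1 CPM against 49082 and 52463 CPM at 22 °C.

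In Col-0, warmth was accompanied by higher counts of the synthesis genes GBSS1 and APL3, of SEX4 and of the beta-amylase gene BAM1, while BAM3, AMY3 and DPE1 were lower. In spaQ, only SEX4 and BAM3 passed the test, and both were lower at 28 °C. Between the genotypes, DPE1 was lower and BAM1, BAM3 and AMY3 were higher in spaQ at 22 °C. At 28 °C the same 4 genes differed in the same direction, and GBSS1, APL3, SEX4 and DPE2 were lower in spaQ as well. BAM5 had its most counts in Col-0 at 28 °C. Only that group took BAM5 past the filter on low counts, so its differences are given below as count ratios, without a test.

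A gene was called changed where edgeR's quasi-likelihood test gave a Benjamini-Hochberg adjusted p below 0.05 over the 17841 genes that passed a filter on low counts. All 10 starch genes passed the filter, BAM5 through the libraries of Col-0 at 28 °C. In Col-0, 8 of 10 genes were called between 28 °C and 22 °C, against 40.8% of all genes tested, 5 of them higher (18.9% of all genes) and 3 lower (21.9%). In spaQ, 2 of 10 were called, against 12.4%, none higher (6.55%) and both lower (5.87%). Between spaQ and Col-0 at 22 °C, 4 of 10 were called, against 42.5%, with 3 higher (20.7%) and 1 lower (21.7%), so the share of starch genes was near that of all genes. At 28 °C, 9 of 10 were called, against 30.9%, with 3 higher (17.4%) and 6 lower (13.5%). The temperature difference itself differed between spaQ and Col-0 for 4 of 10 genes, against 11.9%, with 1 interaction above 0 (6.58%) and 3 below (5.29%). Without replicate 2 of spaQ at 28 °C, 4 of 10 genes were called with warmth in spaQ, where 22.1% of all genes were. Without BAM5 the counts were 7 of 9, 2 of 9, 4 of 9, 8 of 9 and 4 of 9 in the same order. Of these 9 genes, 4 were called higher and 3 lower with warmth in Col-0. Between spaQ and Col-0 at 28 °C, 3 of the 9 were called higher and 5 lower.

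The median log2 fold change over the 10 genes was 0.34 for warmth in Col-0, where the median of all genes was -0.02, and -0.19 for warmth in spaQ, where it was 0.02. For spaQ over Col-0 the median was 0.11 at 22 °C, with -0.05 over all genes, and -0.69 at 28 °C, with 0.03 over all genes. The interaction had a median of -0.30, with 0.06 over all genes. These medians include BAM5, whose spaQ counts were at the floor. Over the other 9 genes they were 0.21, -0.23, 0.17, -0.66 and -0.10 in the same order. The comparisons share groups and are not independent of each other.

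**Figure D1:**
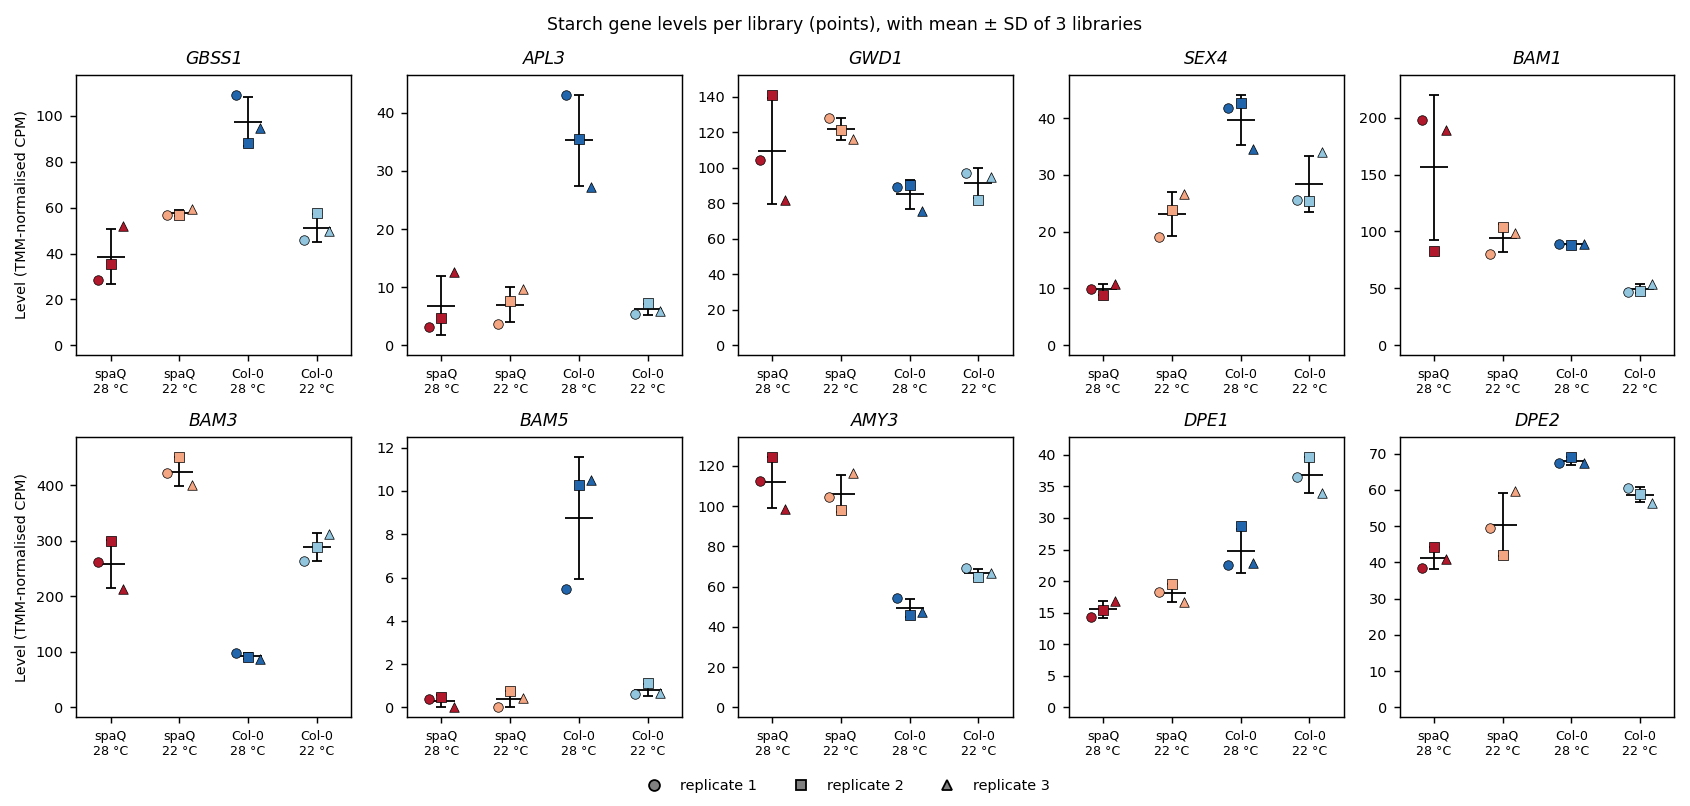
Level of each of the 10 starch genes in CPM after TMM normalisation, with 1 point per library and the mean ± SD of the 3 libraries of a group; each panel has its own axis. The libraries of Col-0 at 28 °C were the highest for APL3, GBSS1, SEX4, BAM5 and DPE2 and the lowest for AMY3 and BAM3. For BAM3 they lay between 87.1 and 97.8 CPM.

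GBSS1 encodes the granule-bound starch synthase, which makes the unbranched glucan amylose. It had 28.5, 35.5 and 51.9 CPM in the 28 °C spaQ libraries, 56.8, 56.7 and 59.2 CPM in the 22 °C spaQ libraries, 109, 88.4 and 94.9 CPM in the 28 °C Col-0 libraries, and 45.8, 57.6 and 49.7 CPM in the 22 °C Col-0 libraries. Every library of Col-0 at 28 °C was above all others, and the other 3 groups lay closer together. In Col-0, GBSS1 rose 1.91-fold with warmth (log2 fold change 0.94, SE 0.173, edgeR adjusted p = 0.00099). In spaQ the difference between 28 °C and 22 °C did not pass the test (log2 fold change -0.57, SE 0.182, edgeR adjusted p = 0.0589). The 2 spaQ groups did not overlap, which held for 25.6% of all genes tested. The 2 responses differed from each other (interaction -1.51, SE 0.251, edgeR adjusted p = 0.0049). At 28 °C GBSS1 was 2.52-fold lower in spaQ than in Col-0 (edgeR adjusted p = 0.00011), and at 22 °C no difference was called (log2 fold change 0.17, SE 0.178).

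APL3 encodes a large subunit of ADP-glucose pyrophosphorylase. The gene had 3.17, 4.65 and 12.6 CPM in the 28 °C spaQ libraries, 3.70, 7.66 and 9.59 CPM in the 22 °C spaQ libraries, 43.0, 35.5 and 27.3 CPM in the 28 °C Col-0 libraries, and 5.43, 7.27 and 5.82 CPM in the 22 °C Col-0 libraries. The 3 libraries of Col-0 at 28 °C stood above all 9 others, and the other 3 groups overlapped each other. APL3 was 5.71-fold higher in Col-0 at 28 °C than at 22 °C (log2 fold change 2.51, SE 0.380, edgeR adjusted p = 0.00026). In spaQ its log2 fold change was 0.11 with an SE of 0.470. The interaction was -2.40 (SE 0.610, edgeR adjusted p = 0.0250), and it lost its call without any 1 of the 3 Col-0 libraries at 22 °C or without replicate 2 or 3 of spaQ at 22 °C (adjusted p 0.0503 to 0.0723). At 28 °C APL3 was 5.12-fold lower in spaQ (edgeR adjusted p = 0.00047).

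GWD1 encodes the glucan water dikinase that phosphorylates starch, and its loss is known to leave plants with excess starch. It had 105, 141 and 81.9 CPM in the 28 °C spaQ libraries, 128, 121 and 116 CPM in the 22 °C spaQ libraries, 89.3, 90.2 and 75.7 CPM in the 28 °C Col-0 libraries, and 97.1, 81.6 and 94.9 CPM in the 22 °C Col-0 libraries. At 22 °C every spaQ library was above every Col-0 library, by a log2 fold change of 0.42 that missed the threshold (SE 0.167, edgeR adjusted p = 0.0611). These 2 groups did not overlap, in either direction, for 58.1% of all genes tested. In the main analysis GWD1 was not called in any of the 5 comparisons, but the 22 °C difference was called in 7 of 20 alternatives (adjusted p 0.0033 to 0.148 over all 20). At 28 °C GWD1 was called higher in spaQ in 1 of 20 alternatives, without replicate 3 of spaQ at 28 °C (0.54, edgeR adjusted p = 0.0140, the lowest of a range up to 0.691). For warmth it had log2 fold changes of -0.15 in spaQ and -0.10 in Col-0. Its highest level in spaQ at 28 °C was in replicate 2, the library with the highest root and photosynthesis marker sums of its group. A link of GWD1 to either was not tested.

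SEX4 encodes the glucan phosphatase that removes what GWD1 and its partners add. It had 9.90, 8.81 and 10.7 CPM in the 28 °C spaQ libraries, 19.0, 23.8 and 26.7 CPM in the 22 °C spaQ libraries, 41.8, 42.7 and 34.6 CPM in the 28 °C Col-0 libraries, and 25.6, 25.4 and 34.0 CPM in the 22 °C Col-0 libraries. The spaQ libraries at 28 °C lay below all others and close to each other, and the highest Col-0 library at 22 °C came close to the lowest at 28 °C. SEX4 fell 2.32-fold with warmth in spaQ (log2 fold change -1.22, SE 0.191, edgeR adjusted p = 0.0022). In Col-0 it rose 1.39-fold (log2 fold change 0.47, SE 0.157, edgeR adjusted p = 0.0287), a call that was lost without replicate 1 or 2 of either Col-0 group (adjusted p 0.0676 to 0.0896). The interaction was -1.69 (SE 0.248, edgeR adjusted p = 0.0027). At 28 °C SEX4 was 4.04-fold lower in spaQ than in Col-0 (log2 fold change -2.02, SE 0.18, edgeR adjusted p = 5.0e-06). At 22 °C the groups overlapped and the log2 fold change was -0.32 (SE 0.169, edgeR adjusted p = 0.141).

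**Figure D2:**
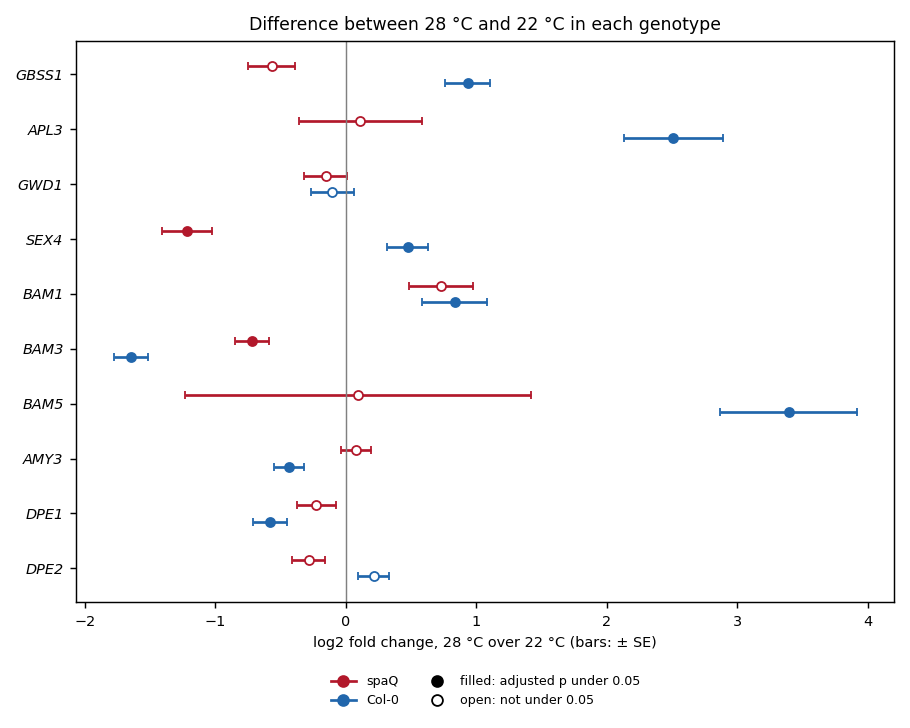
Log2 fold change of the 10 starch genes between 28 °C and 22 °C in spaQ and in Col-0, with bars for ± 1 SE and filled points where the adjusted p was under 0.05. SEX4 lay at -1.22 in spaQ and 0.47 in Col-0, and BAM5 has wide bars in spaQ because its counts there were at the detection floor.

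Counts of SEX4 set against counts of GWD1 in the same library need no normalisation between libraries. The ratio of SEX4 to GWD1 counts was 0.0947, 0.0624 and 0.131 in the 28 °C spaQ libraries, 0.148, 0.196 and 0.230 in the 22 °C spaQ libraries, 0.468, 0.473 and 0.457 in the 28 °C Col-0 libraries, and 0.264, 0.312 and 0.358 in the 22 °C Col-0 libraries. The 4 groups did not overlap, with spaQ at 28 °C lowest and Col-0 at 28 °C highest. This pair, and the pairs BAM1 with BAM3 and DPE2 with DPE1 below, were chosen after the values were seen and are given without a test.

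BAM3 encodes the beta-amylase that in leaves carries much of the nightly starch breakdown. It had 262, 299 and 213 CPM in the 28 °C spaQ libraries, 422, 451 and 399.9 CPM in the 22 °C spaQ libraries, 97.8, 91.0 and 87.1 CPM in the 28 °C Col-0 libraries, and 263, 289 and 313 CPM in the 22 °C Col-0 libraries. Col-0 at 28 °C was far below all other groups, spaQ at 22 °C was above them, and spaQ at 28 °C overlapped Col-0 at 22 °C. BAM3 fell with warmth in both genotypes, 1.64-fold in spaQ (log2 fold change -0.72, SE 0.129, edgeR adjusted p = 0.0047) and 3.13-fold in Col-0 (log2 fold change -1.65, SE 0.132, edgeR adjusted p = 1.0e-05). The fall was smaller in spaQ by 0.93 on the log2 scale (SE 0.183, edgeR adjusted p = 0.0094). BAM3 was 2.80-fold higher in spaQ than in Col-0 at 28 °C (edgeR adjusted p = 5.0e-06) and 1.47-fold higher at 22 °C (edgeR adjusted p = 0.0042). In the RefSeq annotation of TAIR10.1, BAM3 overlaps 2 genes on the other strand, and the strand setting of the counting is not given, so reads of BAM3 and of these genes may not have been told apart.

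BAM1 encodes another plastid beta-amylase, known from work on stress and on guard cells. It had 198, 83.2 and 189 CPM in the 28 °C spaQ libraries, 80.5, 104 and 98.4 CPM in the 22 °C spaQ libraries, 88.7, 87.9 and 89.2 CPM in the 28 °C Col-0 libraries, and 47.0, 47.5 and 54.1 CPM in the 22 °C Col-0 libraries. Replicate 2 of spaQ at 28 °C had less than the other 2 libraries of its group and lay within the range of spaQ at 22 °C. In Col-0 BAM1 rose 1.78-fold with warmth (log2 fold change 0.84, SE 0.248, edgeR adjusted p = 0.0168). In spaQ the log2 fold change was 0.73 (SE 0.245, edgeR adjusted p = 0.0696). Without replicate 2 at 28 °C it was 1.03 and called (edgeR adjusted p = 0.00012, the lowest of the alternatives, which ran up to 0.23). The interaction was -0.10 (SE 0.347, edgeR adjusted p = 0.894), so no difference between the 2 responses was detected. BAM1 was 1.89-fold higher in spaQ than in Col-0 at 22 °C (edgeR adjusted p = 0.0109). At 28 °C it was 1.76-fold higher in spaQ with overlapping groups (edgeR adjusted p = 0.0209), and this call was lost without any 1 Col-0 library at 28 °C and without replicate 1 or 3 of spaQ at 28 °C (adjusted p 0.0553 to 0.0949).

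The ratio of BAM1 to BAM3 counts within a library was 0.755, 0.278 and 0.889 in the 28 °C spaQ libraries, 0.191, 0.230 and 0.246 in the 22 °C spaQ libraries, 0.907, 0.966 and 1.02 in the 28 °C Col-0 libraries, and 0.179, 0.164 and 0.173 in the 22 °C Col-0 libraries. It was higher at 28 °C than at 22 °C in every library of both genotypes. Replicate 2 of spaQ at 28 °C was the closest to the 22 °C libraries.

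**Figure D3:**
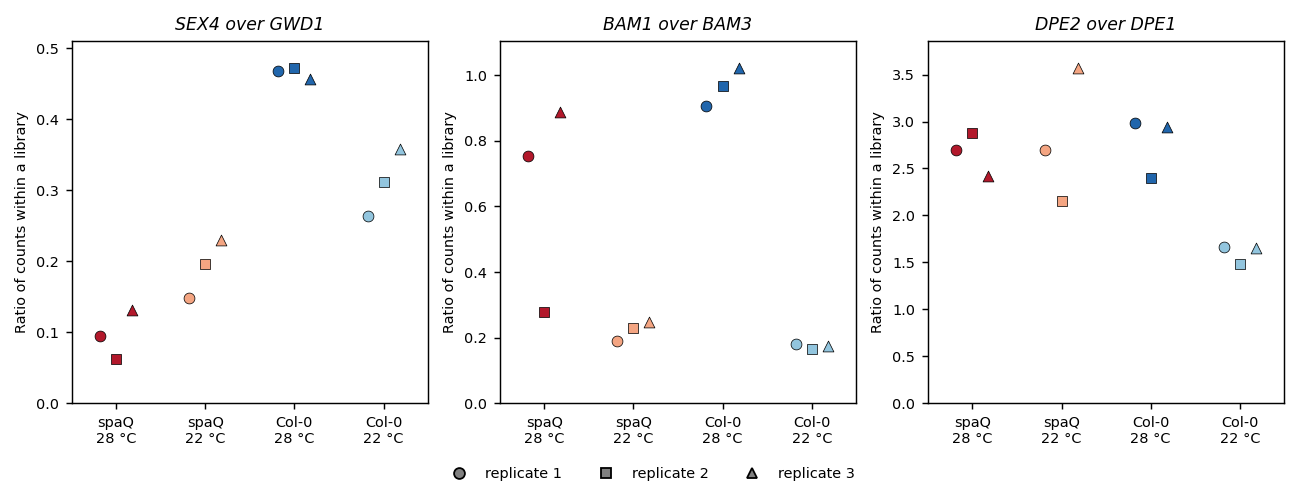
Ratio of the counts of 2 genes within each library for SEX4 over GWD1, BAM1 over BAM3 and DPE2 over DPE1, with 1 point per library in each of the 4 groups. SEX4 over GWD1 separates all 4 groups, while DPE2 over DPE1 sets Col-0 at 22 °C, at 1.49 to 1.66, below the rest.

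BAM5 encodes a beta-amylase found outside the plastid, mainly in phloem. It had 1, 2 and 0 counts in the 28 °C spaQ libraries, 0, 2 and 1 counts in the 22 °C spaQ libraries, 59, 40 and 91 counts in the 28 °C Col-0 libraries, and 2, 4 and 3 counts in the 22 °C Col-0 libraries. In CPM, the libraries of Col-0 at 28 °C were at 5.48, 10.3 and 10.5, and all 9 other libraries were at or below 1.12. Summed over the libraries of a group and scaled to their depth, BAM5 was 10.3-fold higher in Col-0 at 28 °C than at 22 °C (190 against 9 counts, exact 95% interval 5.30 to 22.8, counting error only). It was 26.8-fold lower in spaQ than in Col-0 at 28 °C (3 against 190 counts, exact 95% interval 9.03 to 131). BAM5 was kept by the filter on low counts only because of this group, so its differences are given as these ratios, without a test. In both spaQ groups BAM5 was at or below the floor, so no fold change with warmth is given for spaQ. Whether BAM5 differed between the genotypes at 22 °C could not be resolved at this depth (3 against 9 counts, ratio 0.346, exact 95% interval 0.0602 to 1.39). The phloem markers summed to 307 to 384 CPM in Col-0 at 28 °C and to 272 to 293 CPM in Col-0 at 22 °C, and their log2 fold changes with warmth were 0.91 for PP2-A1, the 1 of the 4 that was called, 0.28 for AHA3, -0.20 for SUC2 and -0.39 for SEOR1.

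AMY3 encodes the plastid alpha-amylase, which cuts starch chains from within. It had 112, 124 and 98.8 CPM in the 28 °C spaQ libraries, 104, 98.1 and 116 CPM in the 22 °C spaQ libraries, 54.3, 46.0 and 47.6 CPM in the 28 °C Col-0 libraries, and 69.1, 64.6 and 66.7 CPM in the 22 °C Col-0 libraries. The spaQ groups overlapped each other and lay above both Col-0 groups. AMY3 was 2.26-fold higher in spaQ than in Col-0 at 28 °C (log2 fold change 1.18, SE 0.117, edgeR adjusted p = 1.1e-05) and 1.59-fold higher at 22 °C (log2 fold change 0.67, SE 0.117, edgeR adjusted p = 0.00073). With warmth it fell 1.35-fold in Col-0 (log2 fold change -0.43, SE 0.117, edgeR adjusted p = 0.0101), a call lost with library totals, without the filter on low counts, and without replicate 1 of Col-0 at 22 °C. In spaQ the log2 fold change was 0.08 (SE 0.116), and the interaction of 0.51 missed the threshold (SE 0.164, edgeR adjusted p = 0.0625), though not without replicate 3 of spaQ at 28 °C (0.59).

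DPE1 encodes the plastid enzyme that joins and splits short glucans left by the amylases. It had 14.3, 15.4 and 16.9 CPM in the 28 °C spaQ libraries, 18.3, 19.5 and 16.7 CPM in the 22 °C spaQ libraries, 22.6, 28.8 and 22.9 CPM in the 28 °C Col-0 libraries, and 36.5, 39.7 and 34.0 CPM in the 22 °C Col-0 libraries. Both spaQ groups were below both Col-0 groups. DPE1 was 1.58-fold lower in spaQ than in Col-0 at 28 °C (log2 fold change -0.66, SE 0.140, edgeR adjusted p = 0.0032) and 2.01-fold lower at 22 °C (log2 fold change -1.01, SE 0.139, edgeR adjusted p = 0.00013). With warmth it fell 1.5-fold in Col-0 (log2 fold change -0.58, SE 0.129, edgeR adjusted p = 0.0033), and the spaQ difference of -0.23 was not called (SE 0.150).

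DPE2 encodes the cytosolic enzyme that uses the exported maltose. It had 38.4, 44.3 and 40.8 CPM in the 28 °C spaQ libraries, 49.4, 42.1 and 59.6 CPM in the 22 °C spaQ libraries, 67.3, 69.1 and 67.5 CPM in the 28 °C Col-0 libraries, and 60.6, 59.0 and 56.4 CPM in the 22 °C Col-0 libraries. The Col-0 libraries at 28 °C were above all others, and the spaQ groups overlapped. The 2 Col-0 groups did not overlap, in either direction, for 59.5% of all genes tested. DPE2 was 1.65-fold lower in spaQ than in Col-0 at 28 °C (log2 fold change -0.72, SE 0.121, edgeR adjusted p = 0.00063), and at 22 °C the log2 fold change of -0.22 was not called (SE 0.122). For warmth the log2 fold changes were -0.28 in spaQ (SE 0.125) and 0.21 in Col-0 (SE 0.118), neither of them called, and the interaction of -0.50 missed the threshold (edgeR adjusted p = 0.0795). The Col-0 difference was called in 3 of 20 alternatives (adjusted p 0.0121 to 0.342 over all of them) and the interaction in 4 of 19 (0.0295 to 0.165). The ratio of DPE2 to DPE1 counts was 2.42 to 2.87 in the 28 °C spaQ libraries, 2.16 to 3.58 in the 22 °C spaQ libraries, 2.40 to 2.98 in the 28 °C Col-0 libraries, and 1.49 to 1.66 in the 22 °C Col-0 libraries, so Col-0 at 22 °C stood below all other libraries.

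**Figure D4:**
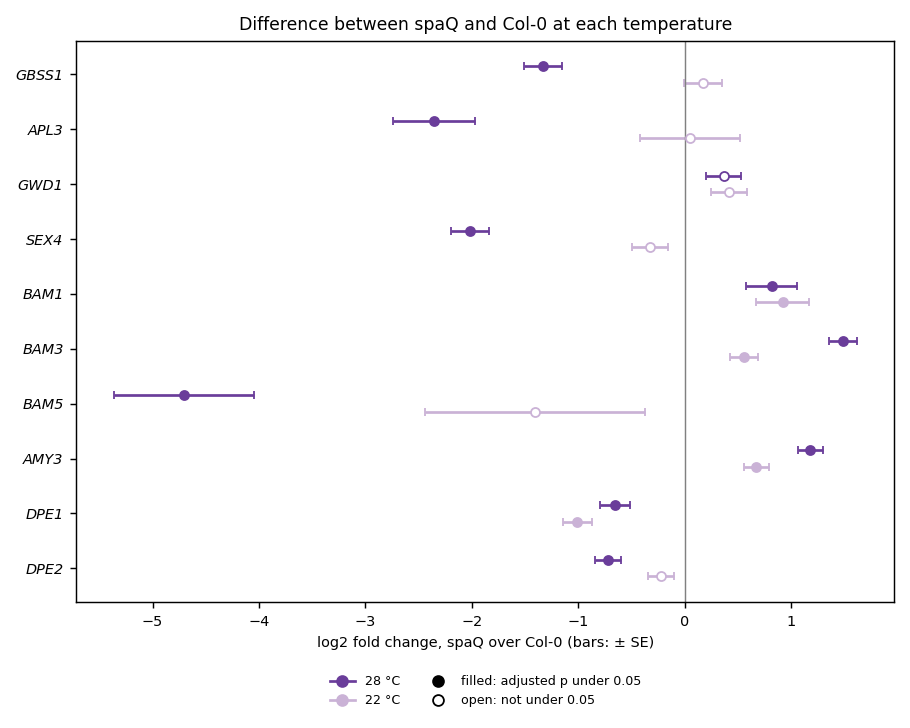
Log2 fold change of the 10 starch genes in spaQ over Col-0 at 28 °C and at 22 °C, with bars for ± 1 SE and filled points where the adjusted p was under 0.05. BAM3 and AMY3 lay above 0 and DPE1 below 0 at both temperatures, whereas GBSS1 and APL3 were near 0 at 22 °C and at -1.33 and -2.35 at 28 °C.

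A further 41 genes of starch metabolism and its transport were listed from textbook knowledge, and 40 of them passed the filter. With warmth in Col-0, 25 of 40 were called, against 40.8% of all genes, 9 higher and 16 lower, with a median log2 fold change of -0.10. By role, 15 of 21 synthesis genes were called, 5 higher and 10 lower, and 9 of 17 breakdown genes, 4 higher and 5 lower. In spaQ, 9 of 40 were called, against 12.4%, 2 higher and 7 lower (median -0.13). Between spaQ and Col-0, 16 of 40 were called at 22 °C, 10 higher and 6 lower (median -0.04), a share near the 42.5% of all genes. At 28 °C, 22 of 40 were called, against 30.9%, 11 in each direction (median 0.22). The interaction was called for 5 of 40, 1 above 0 and 4 below (median -0.03), a share near the 11.9% of all genes. Over the alternatives tried, 4 to 17 of these genes were called with warmth in spaQ, the most without replicate 2 at 28 °C, and 2 to 8 in the interaction. The shares of all genes ran from 2.64% to 22.1% and from 4.89% to 15.5%.

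Among these other genes, those called with a log2 fold change of at least 1 in either direction were ranked, and the 5 at most with the largest changes are named for each comparison. GPT2, a plastid glucose 6-phosphate translocator, was at 51.7, 85.8 and 49.9 CPM in the 28 °C Col-0 libraries, against 1.51, 1.12 and 1.57 CPM in the 22 °C Col-0 libraries, a log2 fold change of 5.43 (SE 0.867, edgeR adjusted p = 0.000365). In spaQ, GPT2 was at 103, 13.9 and 110.2 CPM in the 28 °C libraries, against 21.4, 69.0 and 40.4 CPM in the 22 °C libraries, and these groups overlap. It was higher in spaQ than in Col-0 at 22 °C (log2 fold change 4.88, SE 0.900, edgeR adjusted p = 0.00099), and its warm response differed between the genotypes (interaction -4.61, SE 1.09, edgeR adjusted p = 0.0195). Replicate 2 of spaQ at 28 °C again differed from the other 2 libraries of its group, and without it the interaction was -4.14. The call was lost without any 1 of the Col-0 libraries at 22 °C or without replicate 2 of spaQ at 22 °C (adjusted p 0.0510 to 0.0574).

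APL4, a second large subunit of ADP-glucose pyrophosphorylase, had 2.77, 3.91 and 5.22 CPM in the 28 °C spaQ libraries, 14.7, 10.8 and 8.18 CPM in the 28 °C Col-0 libraries, and 2.71, 4.19 and 3.13 CPM in the 22 °C Col-0 libraries. It was higher with warmth in Col-0 (log2 fold change 1.75, SE 0.302, edgeR adjusted p = 0.00063) and lower in spaQ than in Col-0 at 28 °C (log2 fold change -1.48, SE 0.301, edgeR adjusted p = 0.0022). APL3 showed the same 2 calls. GWD2, a second glucan water dikinase, was at 22.6, 26.2 and 15.6 CPM in the 28 °C Col-0 libraries, against 1.81, 2.52 and 1.79 CPM in the 22 °C Col-0 libraries (log2 fold change 3.37, SE 0.667, edgeR adjusted p = 0.0015).

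BAM6, a further beta-amylase gene, had 17, 47 and 40 counts in the 28 °C spaQ libraries, 58, 19 and 22 counts in the 22 °C spaQ libraries, 21, 10 and 17 counts in the 28 °C Col-0 libraries, and 0, 2 and 1 counts in the 22 °C Col-0 libraries. It was higher in spaQ, where BAM5 was at the floor. From summed counts BAM6 was 34.2-fold higher in spaQ than in Col-0 at 22 °C (99 against 3 counts, exact 95% interval 11.4 to 169, counting error only), and 7.79-fold higher in Col-0 at 28 °C than at 22 °C (48 against 3 counts, exact 95% interval 2.51 to 39.1). At 28 °C its log2 fold change in spaQ over Col-0 was 2.29 (SE 0.311, edgeR adjusted p = 0.00012), and its interaction was -2.64 (edgeR adjusted p = 0.0252), a fitted value that rests on 3 counts in Col-0 at 22 °C and was not called without replicate 1 or 3 of that group, replicate 3 of spaQ at 22 °C or replicate 2 of Col-0 at 28 °C (adjusted p 0.0515 to 0.0846). BAM9, which encodes a beta-amylase-like protein without known catalytic activity, was higher in spaQ than in Col-0 at 28 °C (log2 fold change 1.46, SE 0.176, edgeR adjusted p = 4.8e-05). APL4, BAM6, BAM9 and PHS1 overlap genes on the other strand in RefSeq, so their counts are uncertain in the way described for BAM3. PHS2 overlaps a gene on the same strand, so reads of these 2 genes may not have been told apart whatever the strand setting.

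LDA, the limit dextrinase that removes branches, fell in both genotypes, with a log2 fold change of -1.18 in spaQ (SE 0.205, edgeR adjusted p = 0.0038) and -1.37 in Col-0 (SE 0.189, edgeR adjusted p = 0.00014). PHS2, the cytosolic glucan phosphorylase, had 30.5, 35.7 and 27.9 CPM in the 28 °C spaQ libraries, against 89.6, 94.3 and 88.0 CPM in the 22 °C spaQ libraries (log2 fold change -1.52, SE 0.121, edgeR adjusted p = 4.0e-05). It was called lower with warmth in Col-0 too, with a mean of 58.4 CPM at 28 °C and 105 CPM at 22 °C. PHS2 was also called lower in spaQ than in Col-0 at 28 °C, and its interaction was called below 0. MEX1, the maltose exporter of the chloroplast, was lower in spaQ at both temperatures, with 6.34, 5.87 and 12 CPM in spaQ against 21.8, 24.2 and 19.7 CPM in Col-0 at 28 °C (log2 fold change -1.43, SE 0.219, edgeR adjusted p = 0.0003) and a log2 fold change of -1.05 at 22 °C (SE 0.219, edgeR adjusted p = 0.0023). PHS1, the plastid glucan phosphorylase, was lower in spaQ than in Col-0 at both temperatures, 2.42-fold at 28 °C (edgeR adjusted p = 5.0e-06) and 2.03-fold at 22 °C (edgeR adjusted p = 2.6e-05). ISA3, a debranching enzyme of starch breakdown, was lower in spaQ at 28 °C (log2 fold change -1.32, SE 0.202, edgeR adjusted p = 0.0003), and its interaction of -1.25 was called (SE 0.287, edgeR adjusted p = 0.0169).

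**Figure D5:**
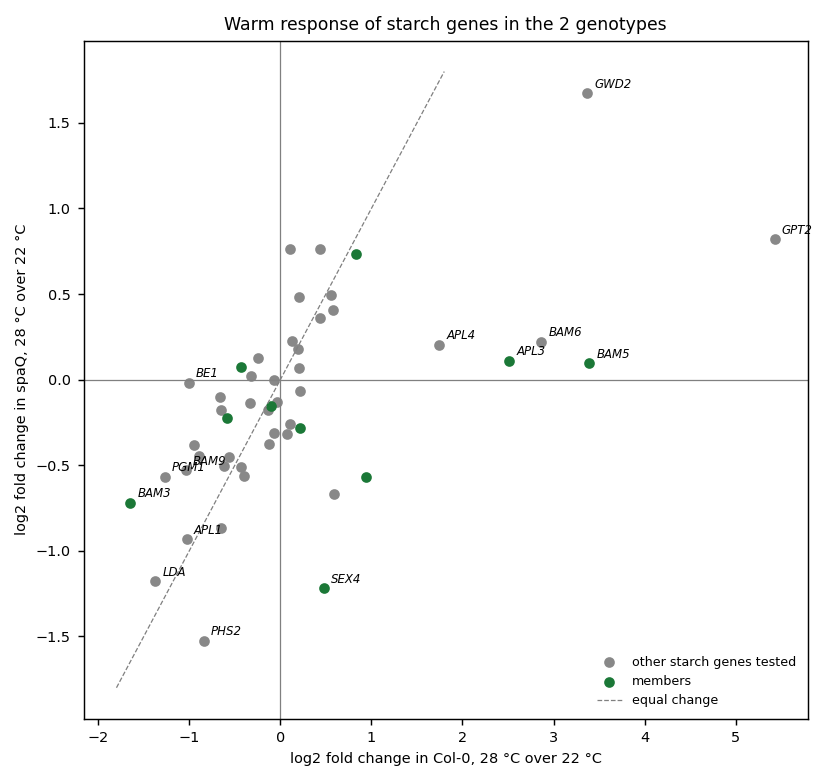
Log2 fold change between 28 °C and 22 °C in Col-0 (horizontal) and in spaQ (vertical) for the 10 starch genes (green) and the 40 other starch genes that were tested (grey), with a dashed line of equal change. GPT2, BAM5, GWD2, BAM6 and APL3 lie far to the right, at 2.51 to 5.43 in Col-0, and SEX4 lies below 0 in spaQ at -1.22; the spaQ value of BAM5 rests on counts at the detection floor.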

How the data were processed

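RNA of whole seedlings was read as 3′ Tag-Seq, per the labels' protocols, in which each transcript is read near its end whatever its length. The authors deposited raw counts per gene, and the submitters' processing notes name FastQC, Bowtie2, TopHat, HTSeq and edgeR, without versions. The genome build, the strand setting and any removal of duplicate reads are not given in the sources used here. No molecular identifiers are stated, so reads may be copies of one molecule and intervals and floors cover counting error only.

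A filter on low counts (filterByExpr in edgeR) kept 17841 of 33655 features, and TMM factors ran from 0.917 to 1.16. Each comparison was tested two-sided with edgeR 4.0.16 (R 4.3.3), glmQLFit and glmQLFTest, with 1 coefficient per group over all 12 libraries, and p-values were adjusted over all genes tested. The interaction is the warm response in spaQ minus that in Col-0. The script was tested on simulated data with known changes. BAM5 and BAM6 ratios have exact conditional binomial 95% intervals. Alternatives covered scaling, filters, DESeq2 1.42.0, fewer libraries and a replicate block. The 10 genes, the 41 further genes, the naming rule (called, log2 fold change of at least 1 in either direction, at most 5 per comparison) and the marker lists were chosen with earlier results of these data known. Locus identifiers were matched to RefSeq's TAIR10.1, where all 10 and all 41 were found; no sequence or coordinate is printed, because the build behind the counts is not given.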

Additional observations from a re-analysis of the deposited data

Results flagged for a closer look

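The response to warmth differed between spaQ and Col-0 for 4 of the 10 starch genes by the interaction term of edgeR's quasi-likelihood test, with adjusted p over all genes tested. For GBSS1 the difference was -1.51 on the log2 scale (adjusted p = 0.0049), with a change of -0.57 in spaQ and 0.94 in Col-0. For APL3 it was -2.40 (adjusted p = 0.0250), with 0.11 in spaQ and 2.51 in Col-0. For SEX4 it was -1.69 (adjusted p = 0.0027), with -1.22 in spaQ and 0.47 in Col-0. For BAM3 it was 0.93 (adjusted p = 0.0094), with -0.72 in spaQ and -1.65 in Col-0. In the same test, an interaction above 0 was called for 3 of 9 root markers and 5 of 7 photosynthesis markers, against 6.58% of all genes, and one below 0 for 1 of 4 phloem markers, against 5.29%; their part in the 4 results was not tested.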

How the results depend on the processing

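Each result was recomputed under 20 alternatives, of which 1, leaving out replicate 1 of spaQ at 22 °C and replicate 2 of spaQ at 28 °C together, was chosen after seeing the data. Of 988 recomputed values, 926 kept their direction and side of the threshold, 20 lost a call, 22 gained one and 20 changed sign, all of them values that were not called. The number of starch genes called with 1 library left out was 6 to 9 for warmth in Col-0, 2 to 4 for warmth in spaQ, 4 to 5 for spaQ over Col-0 at 22 °C, 8 to 9 at 28 °C and 3 to 5 for the interaction. Of all genes, 31.9% to 46.4%, 5.98% to 22.1%, 33.0% to 46.8%, 23.6% to 34.9% and 4.89% to 15.5% were called, in the same order. The counts for warmth in Col-0 and for spaQ over Col-0 at 28 °C include BAM5, which only Col-0 at 28 °C took past the filter. Warmth in spaQ had the highest, 4, without replicate 2 at 28 °C, where BAM1 (1.03) and GWD1 (-0.40, adjusted p = 0.0467, the lowest of its alternatives, up to 0.965) were added, and had 1 when only the libraries compared were fitted (BAM3 adjusted p = 0.0619, the highest of its alternatives, down to 8.5e-06). GBSS1 for warmth in spaQ was called by DESeq2 (-0.59, adjusted p = 0.0353) and without replicate 3 at 28 °C (-0.83, adjusted p = 0.0072), its alternatives running from there to 0.18. BAM1 at 28 °C was not called with library totals (0.54, adjusted p = 0.0861) or with only the libraries compared (0.77, adjusted p = 0.102, the highest of its alternatives, down to 2.5e-06). Signs changed in values that were not called, under library totals, the block or 1 or 2 left-out libraries. GWD1 with warmth in Col-0 became 0.11 with library totals, and ran from -0.14 to 0.0069 with 1 library left out. GWD1 ran from -0.40 to 0.0176 with warmth in spaQ and from -0.36 to 0.12 in the interaction. APL3 for spaQ over Col-0 at 22 °C became -0.0395 with library totals and ran from -0.23 to 0.50 with libraries left out. APL3 with warmth in spaQ ran from -0.65 to 0.40, and was -0.0518 without the 2 libraries together. AMY3 with warmth in spaQ ran from -0.0318, without the 2 together, to 0.16. The BAM1 interaction ran from -0.31 to 0.14, and was 0.0256 without the 2 together. BAM5 with warmth in spaQ, at the floor, became -0.12 with the block, and was as low as -1.65 without the 2 together. The cause was not tested. Library totals in place of TMM moved the median of all genes to 0.19 for warmth in Col-0, to -0.23 for spaQ over Col-0 at 28 °C and to -0.12 for the interaction, and the share of calls that were higher to 68.3%, 28.4% and 25.6%, against 46.3%, 56.2% and 55.5%. Over the alternatives, 2.64% to 22.1% of all genes were called for warmth in spaQ and 4.89% to 15.5% for the interaction, with 7.53% under the replicate block. For the other starch genes, 1336 of 1534 recomputed values of called genes stayed called, 198 lost the call and 0 changed sign. Same-numbered libraries did not deviate together on average (mean r -0.0438 over 18 pairs, from -0.393 to 0.205, 2 of them over 0.1). The labels do not say whether equal numbers share a batch, and with so few libraries these correlations cannot exclude it. With the replicate number as a block, 8, 2, 4, 9 and 4 genes were called, BAM5 among the 8 and the 9, as without it. The shares of all genes called with the block were 37.5%, 8.90%, 39.0%, 28.0% and 7.53%. The smallest library, replicate 3 of spaQ at 22 °C with 2609808 counts, resolves little below about 1.15 CPM. For the Col-0 libraries at 22 °C the floor was 0.660 to 0.887 CPM. Such floors limit BAM5 in spaQ and BAM6 in Col-0 at 22 °C.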

Other observations

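Other subunits of ADP-glucose pyrophosphorylase were chosen for description after their values were seen. APS1, the catalytic small subunit, was higher in spaQ than in Col-0 at both temperatures, with 349 to 352 CPM in spaQ against 172 to 194 CPM in Col-0 at 28 °C (log2 fold change 0.96, edgeR adjusted p = 1.2e-05) and 382 to 389 CPM in spaQ against 217 to 244 CPM in Col-0 at 22 °C (0.77, edgeR adjusted p = 6.5e-05). APL1, the main leaf large subunit, fell with warmth in both genotypes, by 0.93 in spaQ (edgeR adjusted p = 0.0017) and 1.03 in Col-0 (edgeR adjusted p = 0.00013) on the log2 scale, with 120 to 186 CPM in spaQ at 28 °C against 288 to 311 CPM in spaQ at 22 °C. APL2 was lower in spaQ at both temperatures (-0.74 at 28 °C and -0.85 at 22 °C, edgeR adjusted p = 0.0238 and 0.0074), the first of which was lost by DESeq2 and without replicate 1 of Col-0 at 28 °C or replicate 1 or 3 of spaQ at 28 °C (adjusted p 0.0578 to 0.116). APL1 and APL2 had interactions of 0.10 and 0.11, neither called, whereas that of APL3 was -2.40.

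Among the other beta-amylase genes, also chosen after their values were seen, BAM2 fell with warmth in both genotypes, by 0.87 in spaQ and 0.65 in Col-0 on the log2 scale (edgeR adjusted p = 0.0036 and 0.0031). BAM4 was called higher with warmth in Col-0 (0.57, edgeR adjusted p = 0.0098), while the 0.41 in spaQ was not called (edgeR adjusted p = 0.106). BAM7 and BAM8, which are beta-amylase-like transcription factors, were not called in any of the 5 comparisons. BE1 was the 1 other starch gene for which an interaction above 0 was called (0.99, edgeR adjusted p = 0.0334): its log2 fold change with warmth was -0.02 in spaQ and -1.01 in Col-0. That interaction was not called with library totals, by DESeq2, without the filter, with the replicate block, or with any 1 library left out other than replicate 1 of spaQ at 22 °C or replicate 3 of spaQ at 28 °C (adjusted p 0.0517 to 0.119). APL1, BAM2, BAM4 and BE1 overlap genes on the other strand in RefSeq, so their counts are uncertain where the strand setting is not given.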
